A study of Homo sapiens with 6 samples.

Results

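The 10 genes described here encode enzymes that disarm reactive and foreign compounds. NQO1, PTGR1, CBR1 and CBR3 encode reductases, CYP4F3 and CYP4F11 encode cytochrome P450 oxidases, EPHX1 encodes an epoxide hydrolase, and UGDH, GSTP1 and MGST1 serve the attachment of water-soluble groups. They were picked by gene symbol, and all 10 were found, each in 1 row, among the 19421 genes analysed. The set was put together with earlier results of the same comparison known. The differences of these genes between the groups are thus given as descriptions, with no test of their own. Calls printed for these genes come from a fit across all genes, and nothing is read from them.

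RNA sequencing covered 2 groups of 3 samples each of A431, an established human epidermoid carcinoma line with many extra copies of EGFR. In the shARID1A samples the cells expressed a short hairpin RNA directed at ARID1A, a DNA-binding subunit of the BAF (SWI/SNF) chromatin remodelling complexes, and in the shCONTROL samples a control hairpin. All cells grew in DMEM with 10% FBS, and total RNA was isolated with TRIzol. The sources used here do not give how many different hairpins were used, what the control hairpin targets or whether samples of a group were grown apart. P-values and SDs thus cover variation among these samples alone, and that variation may be technical. Levels are FPKM, the gene's reads divided by its length and by the sample's assigned reads, and between 31658040 and 36453744 reads were assigned to genes in each sample.

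In the shARID1A samples ARID1A (gene ID 8289) had 6.70, 7.62 and 7.31 FPKM, against 22.8, 22.8 and 23.8 FPKM in the shCONTROL samples, so every sample matched its label. Of 8 markers of squamous epithelium, 8 were found, 1 of them averaging below 1 FPKM. Their summed level was 1364 to 2080 FPKM in shARID1A samples and 1763 to 2152 FPKM in shCONTROL samples, led by KRT17. The sums overlap, but 2 of the 8 were called lower with the ARID1A hairpin, KRT5 at 45.2 ± 0.588 FPKM in shARID1A samples and 72.9 ± 20.5 FPKM in shCONTROL samples (SD, n = 3 each; limma, adjusted p = 0.0351) and TP63 at 34.3 ± 2.25 FPKM in shARID1A samples and 47.5 ± 0.342 FPKM in shCONTROL samples (limma, adjusted p = 0.0106). The 5 hepatocyte markers found of 6 were all below 1 FPKM on average. The 6 fibroblast markers summed to 10.3 to 12.5 FPKM in shARID1A samples and 6.56 to 8.96 FPKM in shCONTROL samples, mostly LUM, which was called higher with the ARID1A hairpin, and 4 of the 6 averaged below 1 FPKM. The part of these squamous and fibroblast markers in the results on the 10 genes was not tested. The 5 leukocyte markers found of 6 summed to 9.08 to 15.2 FPKM in shARID1A samples and 11.8 to 15.8 FPKM in shCONTROL samples, mostly CD68. Of these 5, 4 averaged below 1 FPKM. Across the 11599 genes that averaged 1 FPKM or more, limma called 1944 (adjusted p below 0.05), 679 higher and 1265 lower with the ARID1A hairpin, and the median log2 fold change was -0.08. Quantile normalization gave 947 higher and 831 lower, and limma voom gave 1042 and 973, with medians of -0.00 and -0.01. The count was 3403 without shARID1A replicate 3, 786 without shARID1A replicate 1, 748 without shCONTROL replicate 1 and 587 without shCONTROL replicate 2. The reads of shARID1A replicate 3 differed from those of its group mates by a chi-square per degree of freedom of 47.5 and 84.7, against 23.4 between those 2 samples. For shCONTROL replicate 3 the values were 27.5 and 23.4, against 5.38 between shCONTROL replicates 1 and 2, so replicate 3 stood apart in both groups.

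Cells clear reactive carbonyls, quinones, epoxides and lipid mediators in steps. Oxidases of the P450 family and hydrolases open up or hydroxylate a molecule. Reductases turn quinones into hydroquinones and ketones into alcohols, or reduce the double bond of unsaturated carbonyls. Transferases then attach glutathione, sulfate or glucuronic acid so that the product can be exported. Several of these genes, NQO1 first among them, are textbook targets of the transcription factor NRF2 (gene NFE2L2), which binds antioxidant response elements with small MAF proteins. NRF2 is held low by KEAP1 and its sites are contested by the repressor BACH1, and NQO1 is also a classic target of the aryl hydrocarbon receptor AHR. In carcinoma cells these enzymes are known for their part in resistance to oxidants and to drugs.

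The promoter sequences show how far the genes share the letters of such elements. RefSeq's promoter table for GRCh38.p14 holds 14 start sites for 9 of the 10 genes, CBR3 having no entry, and the 250 bases upstream of each start were searched on both strands. The core of the antioxidant response element, TGACNNNGC, was found in windows of 4 of the 9 genes, CBR1, EPHX1, CYP4F11 and GSTP1. The core is held by 10.91% of all 35116 windows of RefSeq's list and by windows of 16.08% of the 9233 tested genes with an entry. The 4 matches follow with 25 bases on each side, written along the gene's own strand, with the match in capitals.
CBR1, chr21:36069840-36069898, plus strand: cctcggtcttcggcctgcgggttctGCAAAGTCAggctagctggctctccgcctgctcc
EPHX1, chr1:225825251-225825309, plus strand: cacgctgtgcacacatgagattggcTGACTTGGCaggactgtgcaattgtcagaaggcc
CYP4F11, chr19:15934990-15935048, minus strand: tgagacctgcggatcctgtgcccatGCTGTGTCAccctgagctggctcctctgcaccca
GSTP1, chr11:67583721-67583779, plus strand: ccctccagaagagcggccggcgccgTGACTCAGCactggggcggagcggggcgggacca
The matches begin 159, 78, 156 and 66 bases upstream of a listed start in CBR1, EPHX1, CYP4F11 and GSTP1. EPHX1 and CYP4F11 have several listed starts, and the match lies at the second alone in EPHX1 and at the first alone in CYP4F11. In CBR1 and CYP4F11 the core lies on the opposite strand of the gene. In GSTP1 the core overlaps a match to the AP-1 site TGANTCA, a motif otherwise found in CYP4F3 and at the second listed start of CYP4F11. The AP-1 site is held by 6.57% of all windows and by windows of 6.07% of the tested genes with an entry. The core of the xenobiotic response element bound by AHR, GCGTG, was found in CBR1 and EPHX1, 2 of the 9 genes and 2 of the 14 windows, against 54.0% of the tested genes with an entry and 32.22% of all windows. In EPHX1 this core too lies at the second listed start alone. The GC box GGGCGG was found in 6 of the 9 genes, NQO1, CBR1, EPHX1, UGDH, GSTP1 and MGST1, and in 8 of the 14 windows, against 75.64% of those tested genes and 42.64% of all windows. The TATA box TATAAA was found in 1 window, of MGST1, alone of the 9 genes, against 7.8% of those tested genes and 10.72% of all windows. A match is a string of letters and not a bound site, and a window without one says nothing of elements elsewhere in the gene.

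Of the 10 genes, 9 averaged 1 FPKM or more, and all 9 had a log2 fold change below 0, in shARID1A relative to shCONTROL samples. Among all genes tested, 61.9% did. The fit across all genes called 6 of the 9 lower, namely NQO1, PTGR1, EPHX1, CYP4F3, CYP4F11 and UGDH, where 16.8% of all genes tested were called in either direction, 10.9% lower and 5.85% higher. Since the genes were chosen with this contrast known, nothing is read from these counts. For 8 of the 9 the samples of the 2 groups did not overlap, as for 38.8% of all genes tested in either direction and 25.4% with shARID1A lower. In bulk RNA a smaller number of expressing cells and less RNA per cell cannot be told apart.

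**Figure D1:**
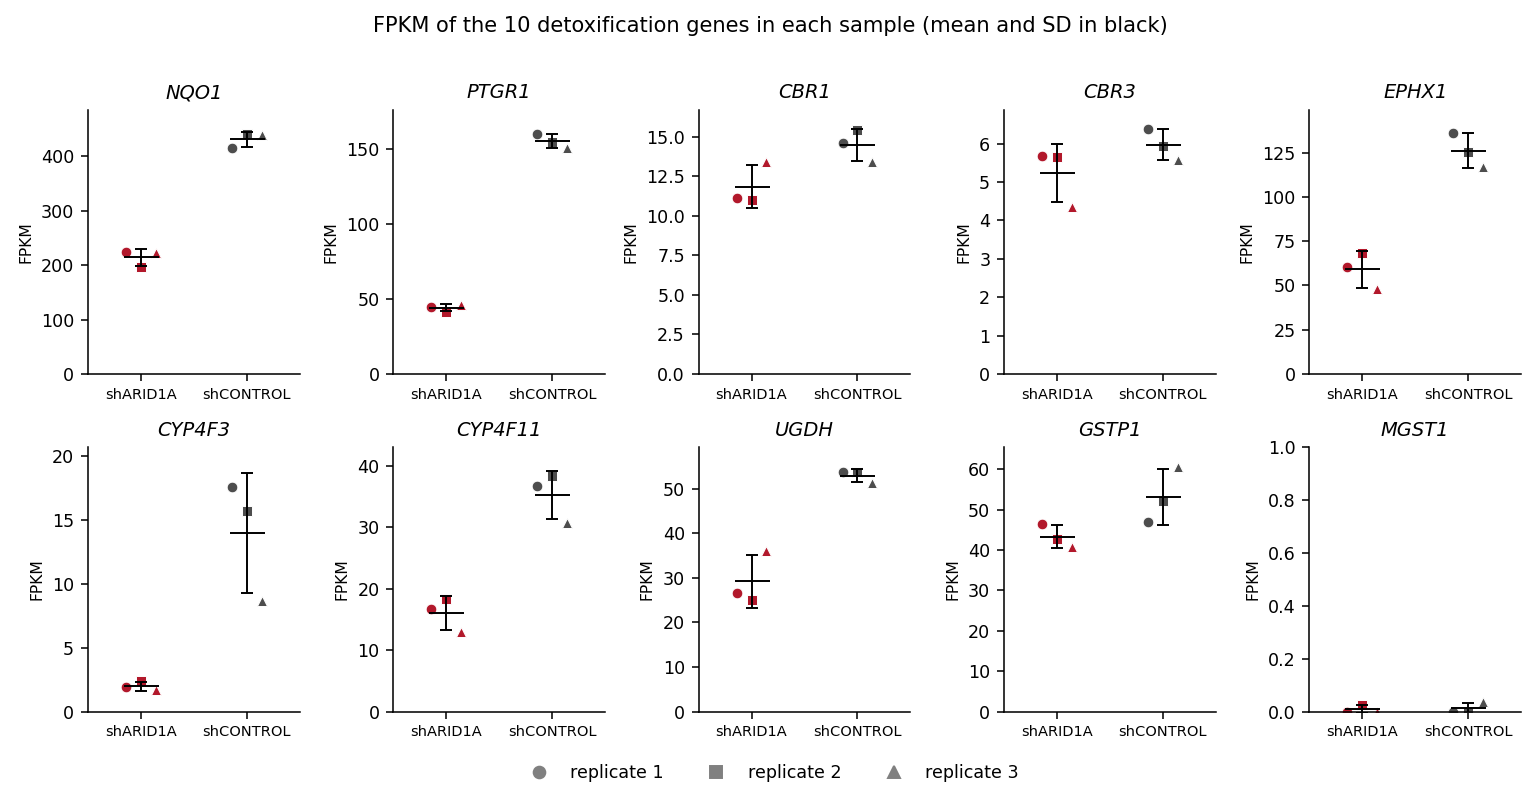
FPKM of each of the 10 genes by sample, with shARID1A samples in red on the left and shCONTROL samples in grey on the right of each panel; symbols mark the replicate number, and black lines the mean and SD of 3 samples. The groups are furthest apart for PTGR1 and CYP4F3, they nearly touch for CBR1 and GSTP1, they overlap for CBR3, and MGST1 is at or close to 0 in every sample.

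Together the 10 genes summed to 438, 411 and 426 FPKM in the shARID1A samples, against 887, 901 and 877 FPKM in the shCONTROL samples. That is 0.115, 0.107 and 0.116% of all FPKM in the shARID1A samples and 0.234, 0.239 and 0.233% in the shCONTROL samples. NQO1 alone made up 51.2, 47.7 and 52.3% of the sum in the shARID1A samples and 46.8, 48.9 and 50.1% in the shCONTROL samples. The sums of the groups did not overlap, and the individual genes differ in how far the groups lie apart.

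NQO1 (gene ID 1728, chromosome 16) encodes NAD(P)H quinone dehydrogenase, which turns quinones into hydroquinones without a radical intermediate. It was at 225, 196 and 223 FPKM in the shARID1A samples and at 415, 441 and 439 FPKM in the shCONTROL samples. Every shARID1A sample lay far below every shCONTROL sample, and the spread within each group was small beside the gap. The means were 215 ± 15.7 FPKM in shARID1A samples and 432 ± 14.4 FPKM in shCONTROL samples (SD, n = 3 each), 50.3% lower with the ARID1A hairpin, with a log2 fold change of -1.01 (SE 0.086). Between 16814 and 40009 reads lay behind each value. NQO1 was the most abundant of the 10 genes, and by mean FPKM it ranked 245 of 19421 genes in shARID1A samples and 102 in shCONTROL samples. An antisense transcript, AC092115.2, covers 17.7% of its exon bases, and because the strandedness of the libraries is not given, reads of such pairs cannot be told apart.

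PTGR1 (gene ID 22949, chromosome 9) encodes prostaglandin reductase, which reduces the double bond of unsaturated carbonyls such as lipid peroxidation products and inactivates prostaglandin and leukotriene metabolites. Its level was 44.6, 41.4 and 46.2 FPKM in the shARID1A samples and 160.1, 155 and 151 FPKM in the shCONTROL samples. The groups were wide apart and tight, with coefficients of variation of 5.596% in shARID1A samples and 2.99% in shCONTROL samples. The means of 44.1 ± 2.47 FPKM in shARID1A samples and 155 ± 4.65 FPKM in shCONTROL samples (SD, n = 3 each) differ by 71.6% of the shCONTROL level, with a log2 fold change of -1.79 (SE 0.083). PTGR1 thus ranked 1629 of 19421 genes in shARID1A samples and 329 in shCONTROL samples. PTGR2, its closest relative by name and reaction, averaged 0.0794 FPKM in shARID1A samples and 0.0503 FPKM in shCONTROL samples and was below the filter.

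CBR1 and CBR3 (gene IDs 873 and 874) are neighbouring genes on chromosome 21 that encode carbonyl reductases, enzymes that reduce ketones, quinones and anthracycline drugs. CBR1 was at 11.1, 10.97 and 13.4 FPKM in the shARID1A samples and at 14.6, 15.4 and 13.4 FPKM in the shCONTROL samples. The groups just failed to overlap, since shARID1A replicate 3 was at 13.386 FPKM and shCONTROL replicate 3 at 13.425 FPKM. The means were 11.8 ± 1.36 FPKM in shARID1A samples and 14.5 ± 1.01 FPKM in shCONTROL samples (SD, n = 3 each), with a log2 fold change of -0.28 (SE 0.112), and CBR1 was not called. Without shARID1A replicate 3 its log2 fold change was -0.36 and it was called, which made 7 genes called in place of 6. A transcript on the opposite strand, AP000688.1, covers 18.9% of the exon bases of CBR1, and its part in the reads of CBR1 was not tested.

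CBR3 stood at 5.67, 5.66 and 4.36 FPKM in the shARID1A samples and at 6.39, 5.93 and 5.58 FPKM in the shCONTROL samples. Replicates 1 and 2 of shARID1A lay above the lowest shCONTROL sample, so the groups overlapped. The means were 5.23 ± 0.754 FPKM in shARID1A samples and 5.97 ± 0.407 FPKM in shCONTROL samples (SD, n = 3 each), with a log2 fold change of -0.17 (SE 0.124), and -0.06 without shARID1A replicate 3. The values rest on 168 to 230 reads, the fewest of the 9 genes in the shCONTROL samples. An antisense transcript on the opposite strand, CBR3-AS1, covers 42.2% of the exon bases of CBR3. CBR3-AS1 was itself listed at 0.374, 0.347 and 0.747 FPKM in the shARID1A samples and at 0.936, 1.32 and 1.29 FPKM in the shCONTROL samples, every shARID1A sample being the lower, and its part in the reads of CBR3 was not tested.

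The cytochrome P450 genes CYP4F3 and CYP4F11 (gene IDs 4051 and 57834) lie in the CYP4F cluster on chromosome 19. CYP4F3 encodes a hydroxylase that inactivates leukotriene B4 at the end of its fatty chain, and CYP4F11 one that hydroxylates long-chain fatty acids and vitamin K. In RefSeq the aligned stretch upstream of CYP4F3 and the second listed start of CYP4F11 is by far the longest shared by any pair of the windows searched, with 127 of 162 alignment columns identical (78.4%). Its alignment score was 153, against 25 for the next of 84 pairs between genes. Both stretches are printed along their gene's strand, with the AP-1 match in capitals, which begins 165 bases upstream of the start in CYP4F3 and 137 bases upstream in CYP4F11.
CYP4F3, chr19:15641129-15641290, plus strand: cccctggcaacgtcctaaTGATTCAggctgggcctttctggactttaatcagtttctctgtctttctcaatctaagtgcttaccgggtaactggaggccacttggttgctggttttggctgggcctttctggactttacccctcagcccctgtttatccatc
CYP4F11, chr19:15934532-15934684, minus strand: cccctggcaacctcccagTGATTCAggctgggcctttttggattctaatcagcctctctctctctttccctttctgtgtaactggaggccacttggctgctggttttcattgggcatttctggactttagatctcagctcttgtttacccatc
The genes are close paralogs, and the shared letters are a description of the pair.

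CYP4F3 stood at 1.89, 2.37 and 1.70 FPKM in the shARID1A samples and at 17.5, 15.7 and 8.69 FPKM in the shCONTROL samples. The lowest shCONTROL sample, replicate 3, was still well above every shARID1A sample, though the shCONTROL samples were spread wide, with a coefficient of variation of 33.4%. The mean was 1.99 ± 0.348 FPKM in shARID1A samples and 13.98 ± 4.67 FPKM in shCONTROL samples (SD, n = 3 each), 85.8% lower with the ARID1A hairpin. Its log2 fold change of -2.28 (SE 0.231) was the most negative of the 9 genes, and it moved with the pseudocount, to -2.70 with 0.1 FPKM and -1.41 with 5 FPKM. Reads per sample numbered 184 to 1740. Of the 50-base words of its GENCODE transcripts, 9.46% also occur in other genes, 7.62% in CYP4F2, so part of its reads may be assigned to a paralog.

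CYP4F11 was at 16.7, 18.4 and 12.9 FPKM in the shARID1A samples and at 36.7, 38.3 and 30.7 FPKM in the shCONTROL samples. The groups did not overlap, and replicate 3 was the lowest sample of each. The means were 15.99 ± 2.78 FPKM in shARID1A samples and 35.2 ± 3.98 FPKM in shCONTROL samples (SD, n = 3 each), 54.6% lower with the ARID1A hairpin, with a log2 fold change of -1.10 (SE 0.143). CYP4F11 shares 0.79% of its 50-base words with other genes. The other CYP4F genes of the table were nearly silent: CYP4F12 averaged 0.206 FPKM in shARID1A samples and 0.296 FPKM in shCONTROL samples, and CYP4F2, CYP4F8 and CYP4F22 stayed below CYP4F12 in both groups.

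EPHX1 (gene ID 2052, chromosome 1) encodes microsomal epoxide hydrolase, which opens reactive epoxides to diols. It was at 60.6, 68.5 and 48.0 FPKM in the shARID1A samples and at 136, 125 and 117 FPKM in the shCONTROL samples. All shARID1A samples lay well below all shCONTROL samples, with replicate 3 lowest in both groups. The means were 59.1 ± 10.3 FPKM in shARID1A samples and 126 ± 9.76 FPKM in shCONTROL samples (SD, n = 3 each), 53.2% lower, with a log2 fold change of -1.09 (SE 0.134). EPHX1 shares no 50-base word with another gene. Of the other epoxide hydrolase genes, EPHX2 and EPHX3 averaged under 0.2 FPKM in both groups, and EPHX4 stood at 2.48 ± 0.359 FPKM in shARID1A samples and 2.37 ± 0.325 FPKM in shCONTROL samples (limma, adjusted p = 0.834).

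UGDH (gene ID 7358, chromosome 4) encodes UDP-glucose dehydrogenase, the enzyme that makes UDP-glucuronate, the donor both for glucuronidation and for hyaluronan and other matrix sugars. It was at 26.7, 24.96 and 35.9 FPKM in the shARID1A samples and at 53.8, 53.7 and 51.2 FPKM in the shCONTROL samples. The groups did not overlap, and shARID1A replicate 3 stood above the other shARID1A samples. The means were 29.2 ± 5.89 FPKM in shARID1A samples and 52.9 ± 1.42 FPKM in shCONTROL samples (SD, n = 3 each), 44.8% lower, with a log2 fold change of -0.85 (SE 0.134), and -1.01 without shARID1A replicate 3. Its antisense neighbour UGDH-AS1, which covers 7.24% of its exon bases, was listed at 0.148, 0.248 and 0.156 FPKM in the shARID1A samples and at 0.532, 0.615 and 0.710 FPKM in the shCONTROL samples. UGDH-AS1 lies too low for the test, and its part in the reads of UGDH was not tested.

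GSTP1 and MGST1 encode glutathione transferases, of the soluble pi class and of the microsomal membrane. GSTP1 (gene ID 2950, chromosome 11) was at 46.4, 42.8 and 40.7 FPKM in the shARID1A samples and at 46.8, 52.0 and 60.6 FPKM in the shCONTROL samples. The groups all but met at 46.4 FPKM in shARID1A replicate 1 and 46.8 FPKM in shCONTROL replicate 1. The means were 43.3 ± 2.87 FPKM in shARID1A samples and 53.2 ± 6.98 FPKM in shCONTROL samples (SD, n = 3 each), with a log2 fold change of -0.28 (SE 0.113), and GSTP1 was not called. MGST1 (gene ID 4257) had 0, 2 and 0 reads in the shARID1A samples and 0, 0 and 3 reads in the shCONTROL samples. That is at or under the floor of 3 reads in every sample, so no fold is given and no difference was detectable at this depth.

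The order of the levels by mean FPKM changed between the groups in a few places only. In shARID1A samples NQO1 was followed by EPHX1, PTGR1, GSTP1, UGDH, CYP4F11, CBR1, CBR3, CYP4F3 and MGST1. In shCONTROL samples it was followed by PTGR1, EPHX1, GSTP1, UGDH, CYP4F11, CBR1, CYP4F3, CBR3 and MGST1. Within shARID1A samples PTGR1 and GSTP1 lay within their spread of each other, and within shCONTROL samples GSTP1 and UGDH did, as did CBR1 and CYP4F3.

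**Figure D2:**
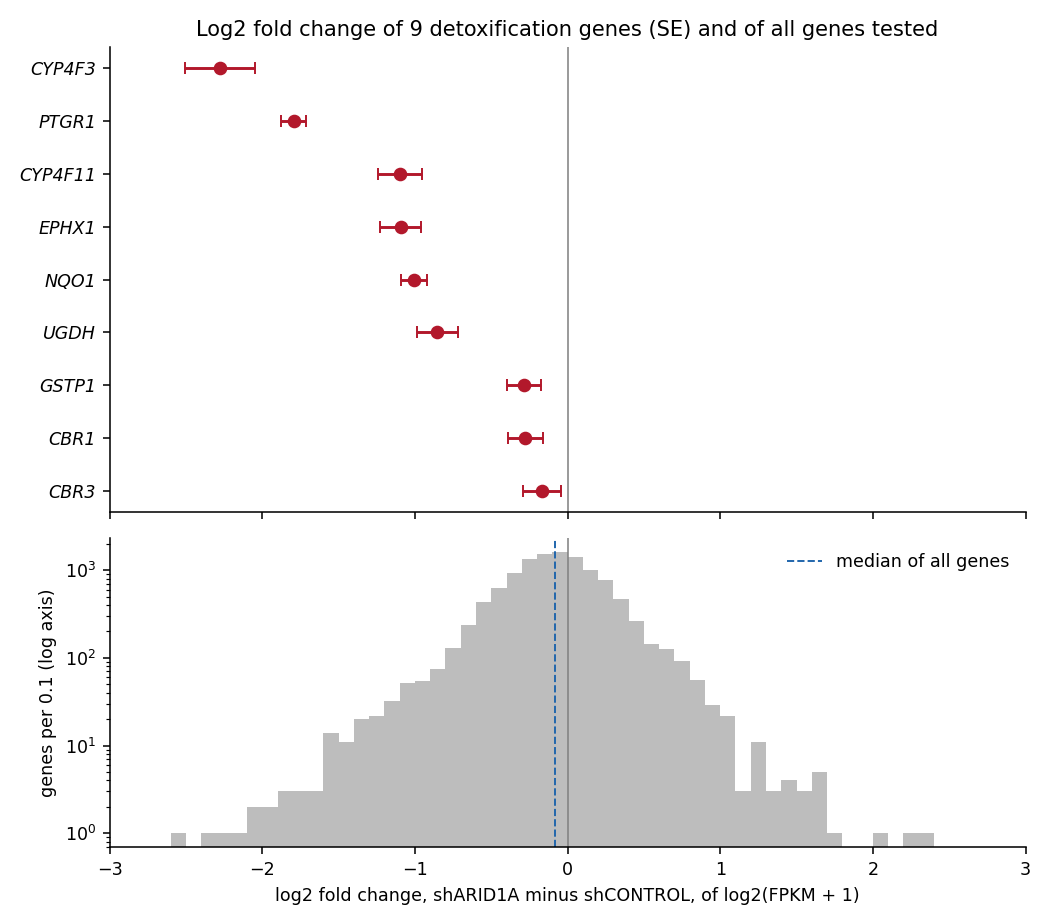
Upper part: log2 fold change, shARID1A minus shCONTROL on log2(FPKM + 1), of the 9 genes that averaged 1 FPKM or more, with the limma SE as bars. Lower part: the number of all 11599 genes tested per step of 0.1 in log2 fold change on a log axis, with their median of -0.08 dashed. The points run from -2.28 for CYP4F3 to -0.17 for CBR3.

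The plot of log2 fold changes shows the 9 genes in 3 ranges. CYP4F3 and PTGR1 lay at -2.28 and -1.79, a group of 4 genes, CYP4F11, EPHX1, NQO1 and UGDH, between -1.10 and -0.85, and GSTP1, CBR1 and CBR3 between -0.28 and -0.17. Over 15 other ways of processing the table, the same 6 genes were called each time, and none of the 9 changed its sign. All of these re-use the samples of the contrast with which the genes were chosen, so they add no support. By replicate number, PTGR1 in shARID1A samples was at 27.9, 26.8 and 30.6% of its shCONTROL level, NQO1 at 54.1, 44.6 and 50.7%, UGDH at 49.6, 46.5 and 70.1% and CYP4F3 at 10.8, 15.1 and 19.5%.

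The profile of NQO1 over the 6 samples was set beside that of every other gene tested, as the root mean square distance between log2(FPKM + 1) profiles centred on their shCONTROL mean. Among the closest 5 genes outside the set were KDM4B at 0.048, TIPARP at 0.080, PCAT7 at 0.085 and TECPR1 at 0.091. KDM4B, a histone demethylase, averaged 5.06 ± 0.333 FPKM in shARID1A samples and 10.995 ± 0.680 FPKM in shCONTROL samples (SD, n = 3 each). TIPARP, a mono-ADP-ribosyltransferase and AHR target, averaged 13.8 ± 1.80 FPKM in shARID1A samples and 29.9 ± 1.41 FPKM in shCONTROL samples. Within the set, UGDH was at 0.17 from NQO1, EPHX1 and CYP4F11 at 0.23, and CYP4F3 at 0.96. Over 2 groups of 3 samples such a distance mostly measures whether 2 genes differ by a like amount between the groups.

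The regulators of this programme were measured in the same fit. NFE2L2 (gene ID 4780) stood at 44.2 ± 6.53 FPKM in shARID1A samples and 54.5 ± 1.34 FPKM in shCONTROL samples (SD, n = 3 each), a log2 fold change of -0.31 (limma, adjusted p = 0.0994; 0.0107 without shARID1A replicate 3). KEAP1 (gene ID 9817) stood at 37.0 ± 3.44 FPKM in shARID1A samples and 39.0 ± 3.31 FPKM in shCONTROL samples, a log2 fold change of -0.07 (limma, adjusted p = 0.657), which turned to 0.01 with limma voom. BACH1 (gene ID 571) stood at 2.89 ± 0.552 FPKM in shARID1A samples and 3.81 ± 0.126 FPKM in shCONTROL samples, a log2 fold change of -0.32 (limma, adjusted p = 0.127; 0.0259 without shARID1A replicate 3). AHR (gene ID 196) was at 6.96, 6.56 and 10.4 FPKM in the shARID1A samples and at 11.6, 10.97 and 11.2 FPKM in the shCONTROL samples, a log2 fold change of -0.48 (limma, adjusted p = 0.0718; 0.0408 with the replicate block and 0.00252 without shARID1A replicate 3). In NFE2L2, BACH1 and AHR shARID1A replicate 3 lay nearest to the shCONTROL samples.

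To set the 10 genes beside their relatives, 6 lists of other genes of the same families and pathways were read from the same fit, 191 genes in all. Of these 157 were found and 97 tested, and 23 were called (23.7%, against 16.8% of all genes tested), 8 higher and 15 lower with the ARID1A hairpin. Their median log2 fold change was -0.12, against -0.08 over all genes tested and -1.01 over the 9 tested genes of the set, which were chosen for their values. In each list genes are named from the 3 with the smallest p, and any others named were chosen after their values were seen.

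**Figure D3:**
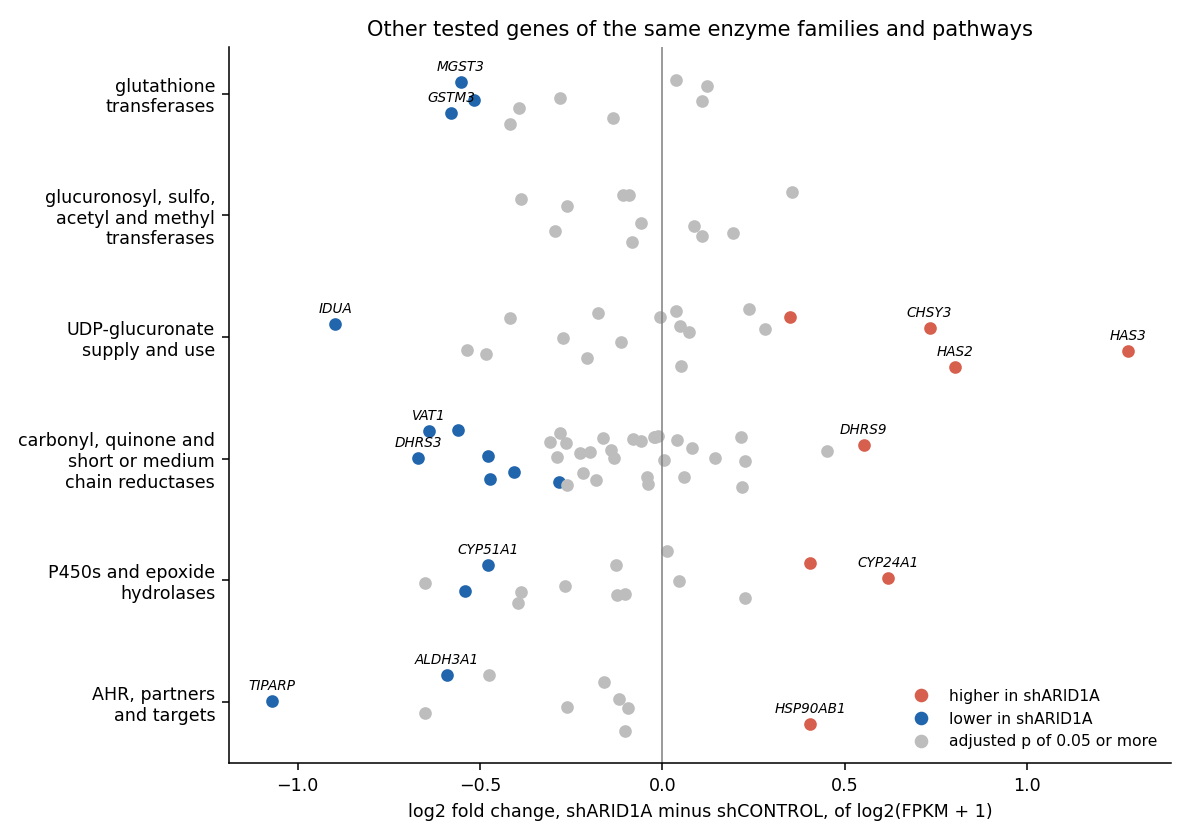
Log2 fold change, shARID1A minus shCONTROL on log2(FPKM + 1), of the 97 tested genes of 6 lists, each list in a row with points spread vertically for legibility; a gene in 2 lists is drawn in both. Red points were called higher, blue points called lower and grey points not called (limma, adjusted p below 0.05). HAS3 lies furthest right at 1.28 and TIPARP furthest left at -1.07.

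Among the other glutathione transferases, 10 of 13 found genes were tested, 3 fell and none rose with the ARID1A hairpin, and the list's median log2 fold change was -0.34. MGST3, a microsomal family member, fell to 11.8 ± 1.32 FPKM in shARID1A samples, against 17.8 ± 1.01 FPKM in shCONTROL samples (SD, n = 3 each; log2 fold change -0.55, limma adjusted p = 0.0127). GSTM3, of the mu class, fell to 3.43 ± 0.227 FPKM in shARID1A samples, against 5.62 ± 0.614 FPKM in shCONTROL samples (-0.58, limma adjusted p = 0.0133). GSTA4, which conjugates the lipid peroxidation product hydroxynonenal, was at 0.759 ± 0.0974 FPKM in shARID1A samples and 1.54 ± 0.408 FPKM in shCONTROL samples (-0.52, limma adjusted p = 0.0450). GSTO1 and GSTK1, more abundant than these 3 in both groups, were not called (log2 fold changes 0.04 and -0.13). GSTZ1, MGST2 and GSTT1 were not called either (-0.28, -0.39 and -0.42). GSTT1 was called lower with the replicate block (limma adjusted p = 0.0373) and without shARID1A replicate 2. The count of 3 was 4 with the replicate block, 1 without shARID1A replicate 1 or without shCONTROL replicate 1, and 0 without shCONTROL replicate 2. With 1 sample left out, the adjusted p reached 0.0776 for MGST3, which lost its call without any of these 3 samples, 0.0597 for GSTM3 without shCONTROL replicate 2, and 0.146 for GSTA4, which kept its call only without shARID1A replicate 3 and lost it with limma voom and 4 other settings.

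The transferases that use glucuronic acid, sulfate, acetyl or methyl groups gave no call among 11 tested genes of 28 found, with a median log2 fold change of -0.08. At an unadjusted p below 0.05 there were 2 with limma, UGT1A6 among them, and limma voom also called 0 and had 1 at that unadjusted p. UGT1A6, a glucuronosyltransferase of phenols, stood at 10.6 ± 0.855 FPKM in shARID1A samples and 13.0 ± 1.39 FPKM in shCONTROL samples (SD, n = 3 each; -0.26, limma adjusted p = 0.143), and because the UGT1A genes share their last exons, reads may be split among them. TPMT, which methylates thiopurine drugs, stood at 2.16 ± 0.494 FPKM in shARID1A samples and 2.86 ± 0.174 FPKM in shCONTROL samples (-0.30, limma adjusted p = 0.175). With the replicate block PAPSS2, a maker of the sulfate donor, was called lower (limma adjusted p = 0.0386), and without shARID1A replicate 3 the count was 3, with PAPSS2 and TPMT among them.

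The genes around UDP-glucuronate, the product of UGDH, showed calls in both directions, 4 higher and 1 lower with the ARID1A hairpin among 19 tested, with a median log2 fold change of 0.04. HAS3, a hyaluronan synthase, was at 12.03, 14.7 and 10.8 FPKM in the shARID1A samples and at 4.26, 4.61 and 4.72 FPKM in the shCONTROL samples. All shARID1A samples were above all shCONTROL samples, and the log2 fold change was 1.28 (SE 0.128, limma adjusted p = 0.00106). HAS2, a second hyaluronan synthase, rose to 6.59 ± 0.665 FPKM in shARID1A samples, against 3.34 ± 0.139 FPKM in shCONTROL samples (SD, n = 3 each; 0.80, limma adjusted p = 0.00327). CHSY3, a chondroitin sulfate synthase, rose to 2.87 ± 0.250 FPKM in shARID1A samples, against 1.33 ± 0.146 FPKM in shCONTROL samples (0.73, limma adjusted p = 0.00546). PGM1, upstream of UGDH in the route from glucose, rose to 23.3 ± 1.03 FPKM in shARID1A samples, against 18.1 ± 1.51 FPKM in shCONTROL samples (0.35, limma adjusted p = 0.0436). UGP2, which makes the substrate of UGDH, stood at 38.5 ± 6.99 FPKM in shARID1A samples and 37.2 ± 3.91 FPKM in shCONTROL samples (0.04, limma adjusted p = 0.871). IDUA, a lysosomal enzyme that breaks such sugars down, fell to 1.33 ± 0.538 FPKM in shARID1A samples, against 3.28 ± 0.110 FPKM in shCONTROL samples (-0.90, limma adjusted p = 0.00960). The calls of HAS3, HAS2 and CHSY3 held in every alternative that tested them, as did that of IDUA. PGM1 lost its call without shARID1A replicate 1, shCONTROL replicate 1 or shCONTROL replicate 2 (adjusted p up to 0.205) and without a filter (0.0542). The count of 5 became 8 with the replicate block and 8 without shARID1A replicate 3.

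**Figure D4:**
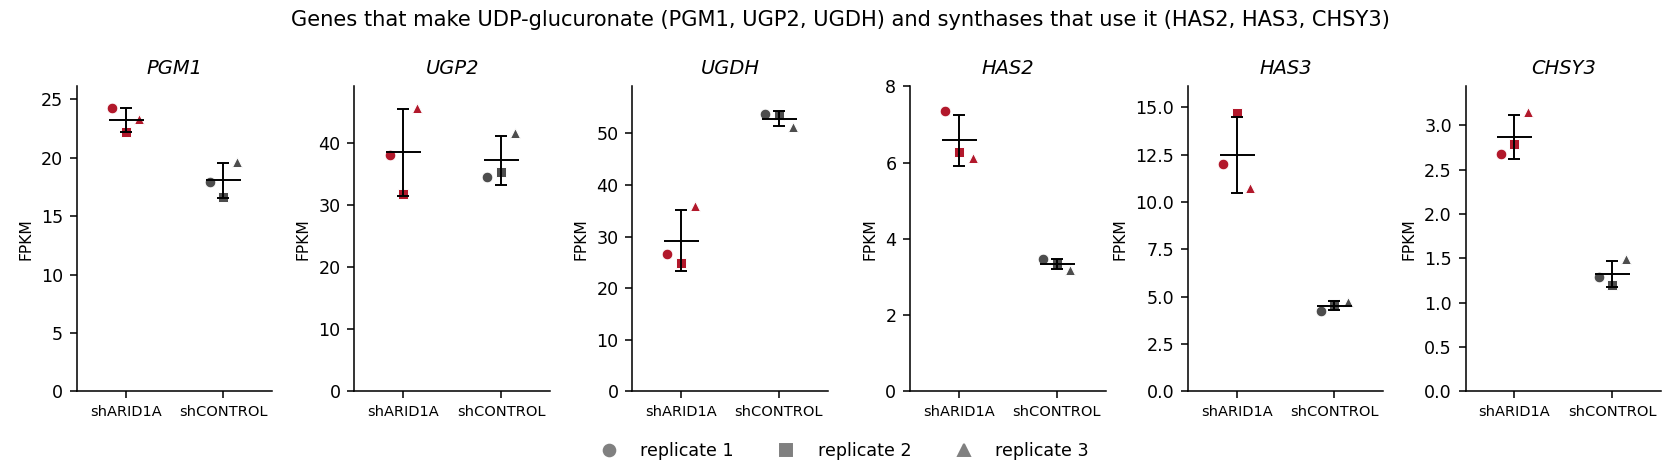
FPKM by sample of PGM1, UGP2 and UGDH, which lead from glucose to UDP-glucuronate, and of HAS2, HAS3 and CHSY3, synthases that use it, with shARID1A samples in red on the left, shCONTROL samples in grey on the right, and black lines for mean and SD of 3 samples. UGDH is lower in all shARID1A samples, the 3 synthases and PGM1 are higher in all shARID1A samples, and the groups overlap for UGP2.

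The other carbonyl, quinone and short or medium chain reductases gave 7 lower and 1 higher of 36 tested, with a median log2 fold change of -0.14. VAT1, a quinone oxidoreductase-like protein, fell to 36.3 ± 4.44 FPKM in shARID1A samples, against 56.9 ± 1.10 FPKM in shCONTROL samples (SD, n = 3 each; -0.64, limma adjusted p = 0.00620). DHRS9, a retinol dehydrogenase, rose to 7.14 ± 0.711 FPKM in shARID1A samples, against 4.54 ± 0.352 FPKM in shCONTROL samples (0.55, limma adjusted p = 0.0153). BLVRB, which reduces biliverdin and flavins, fell to 30.6 ± 3.52 FPKM in shARID1A samples, against 42.9 ± 3.12 FPKM in shCONTROL samples (-0.48, limma adjusted p = 0.0218). NQO2, the paralog of NQO1, fell to 7.30 ± 0.532 FPKM in shARID1A samples, against 10.6 ± 1.27 FPKM in shCONTROL samples (-0.47, limma adjusted p = 0.0300). POR, which passes electrons to the microsomal P450 enzymes, fell to 96.5 ± 10.2 FPKM in shARID1A samples, against 128 ± 5.68 FPKM in shCONTROL samples (-0.41, limma adjusted p = 0.0263). The count of 8 was 5 without shARID1A replicate 2, 5 without shCONTROL replicate 3, and 1 without shARID1A replicate 1, shCONTROL replicate 1 or shCONTROL replicate 2, and with limma voom it was 2, VAT1 and DHRS9. VAT1 was called in every alternative, while DHRS9, BLVRB, NQO2 and POR lost their calls without each of those last 3 samples (adjusted p up to 0.0903, 0.113, 0.141 and 0.112), and POR also without shCONTROL replicate 3.

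Of the other P450 and epoxide hydrolase genes, 14 of 38 found were tested, and 2 rose and 2 fell with the ARID1A hairpin, with a median log2 fold change of -0.13. CYP51A1, the sterol demethylase, fell to 27.5 ± 3.94 FPKM in shARID1A samples, against 38.4 ± 1.79 FPKM in shCONTROL samples (SD, n = 3 each; -0.48, limma adjusted p = 0.0282). CYP24A1, which inactivates vitamin D, rose to 14.1 ± 3.88 FPKM in shARID1A samples, against 8.64 ± 0.726 FPKM in shCONTROL samples (0.62, limma adjusted p = 0.0433). CYP4V2, a fatty acid hydroxylase of the CYP4 family, fell to 2.36 ± 0.678 FPKM in shARID1A samples, against 3.83 ± 0.170 FPKM in shCONTROL samples (-0.54, limma adjusted p = 0.0439). The count of 4 was 6 without shARID1A replicate 3, 2 without shARID1A replicate 2, 1 without shARID1A replicate 1 or shCONTROL replicate 3, and 0 without shCONTROL replicate 1 or shCONTROL replicate 2, with adjusted p up to 0.127 for CYP51A1, 0.153 for CYP24A1 and 0.148 for CYP4V2.

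Of the 10 tested genes of the AHR list, 1 rose and 2 fell with the ARID1A hairpin, with a median log2 fold change of -0.21. TIPARP fell with a log2 fold change of -1.07 (limma adjusted p = 0.00126), a call that held in every alternative. ALDH3A1, an aldehyde dehydrogenase, fell to 448 ± 96.6 FPKM in shARID1A samples, against 666 ± 28.0 FPKM in shCONTROL samples (SD, n = 3 each; -0.59, limma adjusted p = 0.0292). HSP90AB1, the chaperone that holds AHR in the cytosol, rose to 2908 ± 303 FPKM in shARID1A samples, against 2192 ± 184 FPKM in shCONTROL samples (0.41, limma adjusted p = 0.0355). CYP1A1, the most used readout of AHR, was at 3.60, 4.90 and 5.37 FPKM in the shARID1A samples and at 6.09, 6.51 and 11.5 FPKM in the shCONTROL samples (-0.65, limma adjusted p = 0.0831; 0.0151 with the replicate block). CYP1B1, also on this list, stood at 21.4 ± 7.35 FPKM in shARID1A samples and 22.7 ± 5.89 FPKM in shCONTROL samples (-0.10, limma adjusted p = 0.794). The count of 3 was 5 with the replicate block and 5 without shARID1A replicate 3, AHR and CYP1A1 being added in both, and 1 without shARID1A replicate 1, shCONTROL replicate 1 or shCONTROL replicate 2. ALDH3A1 lost its call without those 3 samples or shCONTROL replicate 3 (limma adjusted p up to 0.0922), with limma voom and without a filter. HSP90AB1 lost its call without those 3 samples or shARID1A replicate 2 (limma adjusted p up to 0.153) and without a filter (0.190).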

How the data were processed

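The deposited data are 1 table in which the authors give FPKM for each of 6 samples, beside gene lengths. The submitters' processing notes list the aligner HISAT2 2.0.5 and the read counter featureCounts 1.5.0-p1. The sources used here give no settings, strandedness or genome build. Of 26048 rows, 6234 are empty and 393, which repeat genes on another denominator and hold none of the 10 genes, were left out. Of the 19421 gene IDs analysed, 19344 matched RefSeq. Reads per gene were recovered from the deposited FPKM (100.0% whole within 0.01 reads).

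Genes averaging 1 FPKM or more were tested on log2(FPKM + 1), which understates changes of low genes, with limma 3.58.1 in R 4.3.3 (lmFit, eBayes with a trend, two-sided, Benjamini-Hochberg over 11599 genes, threshold 0.05), after tests on simulated data. Alternatives were other pseudocounts, filters and scalings, limma voom on the recovered reads, a replicate block and leaving out each sample. Other steps used pandas 2.3.3 and numpy 2.4.6 under Python 3.11.15, and plots matplotlib 3.10.9. Deviations from the group means correlated at 0.321, 0.187 and 0.315 between samples of equal replicate number, all over 0.1. Between samples of unequal number the values ran from -0.3025 to 0.0859. The numbers may thus pair the samples, by these data and not by any label. Deviations sum to 0 within a group and replicate 3 stood apart in both groups, so these values do not count as separate evidence of pairing. No 2 samples of a group differed as little as counting noise (chi-square per degree of freedom 5.38 to 84.7).

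The 10 genes, the lists and the rule for naming genes were chosen with earlier results of these data known. Named are the 10 genes, ARID1A, NFE2L2, KEAP1, BACH1, AHR, the 3 genes of each list with the smallest p, and the 5 genes nearest to NQO1, of which a few are not reported here.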

Additional observations from a re-analysis of the deposited data

How the results depend on the processing

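The 6 called genes of the set were called under all 15 alternatives, and leaving out a sample gave 6 to 7. The genes were chosen with this contrast known, so nothing is read from these counts. Of the set's log2 fold changes under these alternatives, 129 moved by less than the replicate SD, 6 moved by more and 0 changed sign. The replicate block and a change of filter cannot alter a gene's log2 fold change here, so their part of the 129 was fixed in advance. Of the other named genes' results, 337 kept their direction and side of the threshold, 52 lost and 6 gained a call, and KEAP1 turned to 0.0097 with limma voom. Leaving out 1 sample gave 587 to 3403 called genes, 0 to 3 glutathione transferases, 0 to 3 other transferases, 4 to 8 UDP-glucuronate genes, 1 to 11 reductases, 0 to 6 P450 and epoxide hydrolase genes and 1 to 5 AHR genes. A mean of at least 5 FPKM gave 1 glutathione transferase, 2 UDP-glucuronate genes and 2 P450 and hydrolase genes, having fewer genes to test. Without a filter there were 5 reductases, 0 P450 and hydrolase genes and 1 AHR gene. Equal FPKM sums gave 1 P450 or hydrolase gene, and limma voom 2 reductases. The replicate block gave 4 glutathione transferases, 1 other transferase, 8 UDP-glucuronate genes and 5 AHR genes. Among the genes of the lists named here it changed the calls of GSTT1, PAPSS2, AHR and CYP1A1 alone. Higher genes were 34.9% of the calls, 41.5% with upper quartile scaling, 53.3% with quantile normalization and 51.7% with voom. Where no alternative's construction shows the cause, the cause was not tested. With 3 samples per group, small differences such as those of CBR1, CBR3 and GSTP1 may be missed.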
